A study of Mus musculus with 6 samples.

Results

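Metallothioneins and the zinc response were followed through 4 mouse genes, Mt1, Mt2, Mtf1 and Slc30a1, which form a named list and were looked up by symbol in the array annotation. All 4 were found among the 19505 genes measured, each with 1 transcript cluster, the array feature that stands for a gene. The cells were B16F10, a pigmented mouse melanoma line with no introduced genetic change named in the labels. After 24 h of seeding, the control cells received medium alone for 48 h, and the treated cells 2.5 µM or 40 µM of the compound that the labels name di-sq and the series title SQ-diEG. Each of the 3 groups held 2 single-colour Affymetrix arrays, 6 in all, and the labels name no vehicle for the control. The labels do not state whether paired arrays stem from separate cultures, and the p-values then cover only the scatter among these arrays, possibly of technical origin. Expression is given as deposited log2 values, so that a difference of 1 is a 2-fold difference. In these bulk samples, fewer cells with a transcript and less of it per cell cannot be told apart.

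Metallothioneins are small cysteine-rich proteins that bind zinc, copper and cadmium and take part in the buffering of free zinc. Their genes are switched on by MTF1, a zinc-finger transcription factor that senses free zinc and binds short metal response elements in promoters. The same factor acts on Slc30a1, which encodes ZnT1, the exporter that passes zinc out of the cell through the plasma membrane. Metallothionein genes also answer to copper and cadmium, to glucocorticoids and to oxidants.

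Because MTF1 is known to act through them, the promoters of the 2 metallothionein genes and of the exporter are shown, as bases 250 to 1 before the start that RefSeq annotates (GRCm38.p6). Capitals mark the core of the metal response element, TGCACNC or TGCGCNC, found on either strand. The windows are chr8:94178839-94179088 for Mt1, chr8:94172368-94172617 for Mt2 and chr1:191906531-191906780 for Slc30a1, each on the plus strand.
Mt1: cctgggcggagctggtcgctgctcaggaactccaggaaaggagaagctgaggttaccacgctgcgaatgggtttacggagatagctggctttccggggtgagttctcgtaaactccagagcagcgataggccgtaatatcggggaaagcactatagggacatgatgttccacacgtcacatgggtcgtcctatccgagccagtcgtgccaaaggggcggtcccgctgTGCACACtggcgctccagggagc
Mt2: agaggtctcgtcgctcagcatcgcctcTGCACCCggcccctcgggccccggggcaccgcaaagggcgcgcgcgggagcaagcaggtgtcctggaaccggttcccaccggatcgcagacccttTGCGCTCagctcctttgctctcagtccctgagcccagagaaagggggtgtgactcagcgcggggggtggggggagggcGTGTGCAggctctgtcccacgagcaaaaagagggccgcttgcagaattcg
Slc30a1: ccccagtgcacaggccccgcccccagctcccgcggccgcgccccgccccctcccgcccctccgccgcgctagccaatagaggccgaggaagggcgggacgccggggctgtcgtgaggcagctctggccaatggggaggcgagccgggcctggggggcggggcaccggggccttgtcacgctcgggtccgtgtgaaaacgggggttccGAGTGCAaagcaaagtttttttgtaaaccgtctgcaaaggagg
Over the whole RefSeq window, which adds 50 bases after the start, Mt1 held 3 cores, Mt2 held 4, Slc30a1 held 2 and Mtf1 held 0. In Mt1 the core before the start lay at bases -23 to -17 (TGCACAC), and the others began 3 and 21 bases after the start. These positions hold for the start that RefSeq annotates, and whether transcription begins there in these cells was not tested. In Mt2 the cores before the start began at -223, -128 and -50, the last on the opposite strand, and a further core began 5 bases after the start, also on the opposite strand. In Slc30a1 both cores, at -43 to -37 and 31 to 37, lay on the opposite strand. Of 32851 RefSeq mouse promoter windows of 300 bases, 12.6% held TGCACNC, 15.4% held TGCGCNC and 25.7% at least 1 of the pair. At least 2 cores were found in 7.11% of windows, at least 3 in 1.97% and at least 4 in 0.517%. The antioxidant response core TGACNNNGC, searched the same way, was found in 12.4% of windows, among them Mt2 (TGACTCAGC) and Slc30a1 (TGACAAGGC). The E-box CACGTG, present in 7.15% of windows, and the TATA box core TATAAA, present in 13.6%, matched none of the 4 windows. Bases beyond these windows were not searched. A missing match, such as that of the antioxidant core in Mt1, therefore holds for the window only. No listed core overlapped another, and a match describes the letters only.

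The 7 melanocyte lineage markers (Pmel, Mlana, Tyrp1, Dct, Tyr, Sox10 and Mitf) lay between 12.67 and 19.21 on all arrays. These markers describe the lineage and cannot tell B16F10 from another melanocytic line. Background was taken on each array as the 95th percentile of 5222 negative control features, between 9.80 and 10.06 with a mean of 9.94. The measured markers of fibroblasts, keratinocytes, leukocytes and endothelium all lay below it on every array, the highest at 5.94. Of the genes, 78.7% had a mean below 9.94. Replicate 1 at 2.5 µM and replicate 1 at 40 µM, called the low arrays here, had lower control features than the other 4 arrays. For the hybridisation controls they averaged 10.43 and 10.30, and the others 10.82 to 11.15. For the poly-A controls they averaged 5.65 and 5.63, and the others 6.35 to 7.42. All of these poly-A means lay below background, and those of the low arrays below the medians of their negative controls, 5.98 and 6.10. Both control arrays lay outside the low arrays, so that for the low arrays dose and array type cannot be told apart against control.

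At 40 µM both metallothionein transcripts were higher than in control on both arrays, but by very different amounts on the 2 arrays, and the difference did not pass over all genes. Mt1, the first of the ubiquitous pair, lay at 14.99 and 14.96 in control, at 16.14 and 14.97 at 2.5 µM, and at 18.04 and 15.74 at 40 µM, each on replicates 1 and 2. Both arrays at 40 µM lay above both controls, and the low array at 2.5 µM lay between the 2 arrays at 40 µM. Mt2, its neighbour on chromosome 8, lay at 13.31 on both controls, at 14.95 and 13.18 at 2.5 µM, and at 16.26 and 14.32 at 40 µM. As for Mt1, the low array at 2.5 µM lay between the 2 arrays at 40 µM. At 2.5 µM replicate 2, neither gene exceeded both controls.

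**Figure D1:**
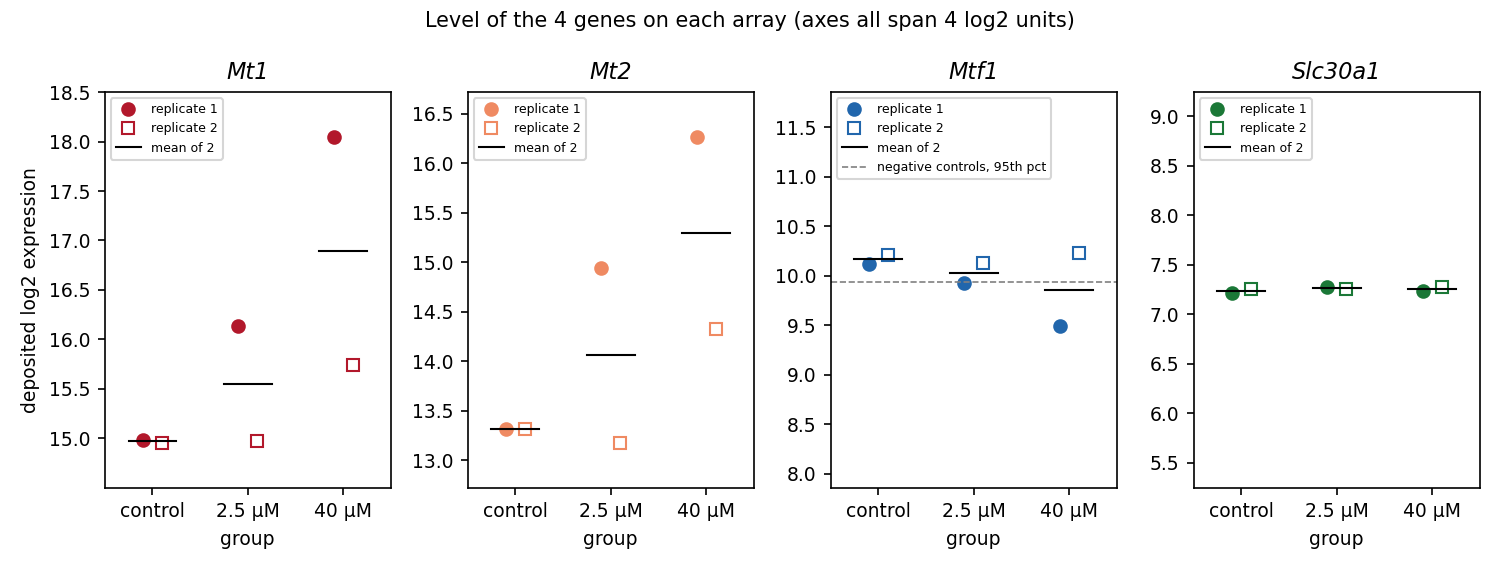
Deposited log2 expression of the 4 genes on each array, by group, with replicate 1 as filled circles, replicate 2 as open squares and the mean of 2 as a bar; every axis spans 4 log2 units. Mt1 and Mt2 are highest on 40 µM replicate 1 (18.04 and 16.26), Mtf1 is lowest there (9.49), and Slc30a1 stays between 7.21 and 7.28.

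The mean of Mt1 was 16.89 ± 1.63 at 40 µM against 14.97 ± 0.02 for the controls (SD, n = 2). The log2 change was 1.92 (SE 0.70), or 3.78-fold (limma, 95% confidence interval 0.27 to 3.57 on the log2 scale). Mt2 averaged 15.29 ± 1.37 against 13.31 ± 0.002 (SD, n = 2), a log2 change of 1.98 (SE 0.71), or 3.94-fold (95% confidence interval 0.30 to 3.66). Ordered by size, these were the 6th and 2nd largest of the 19505 changes at 40 µM, yet ordered by p they ranked 1458th and 1401st. The intervals and p-values rest on 1 spread shared by the 3 groups, although the SDs at 40 µM and in control differed widely. The unadjusted p-values were 0.0283 and 0.0270, and after Benjamini-Hochberg adjustment over all genes 0.379 and 0.376 (limma), so neither passed. No gene of the whole table did, which is a share of 0%, while 2349 had an unadjusted p under 0.05. Mt1 and Mt2 are thus 2 of 4 members higher at an unadjusted p under 0.05, where 5.18% of all genes were, and 2 of 4 with both arrays above both controls, where 22.2% of all genes were. With a change of at least 1 as well, the share of all genes was 1.56%.

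The 2 arrays at 40 µM stood further apart for Mt1 and Mt2 than for nearly all other genes. Replicate 1 exceeded replicate 2 by 2.30 for Mt1 and by 1.94 for Mt2, against a median absolute gap of 0.37 over all genes. Only 0.369% of genes had a larger absolute gap than Mt1 and 1.02% a larger one than Mt2. At 2.5 µM replicate 1 exceeded replicate 2 by 1.16 for Mt1 and by 1.77 for Mt2, where the median absolute gap was 0.27. In control the 2 arrays differed by 0.03 for Mt1 and by -0.003 for Mt2, where the median absolute gap was 0.12. The wide gaps therefore lay in the treated groups, and in both the low array was the higher.

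Against the mean of the controls, Mt1 was higher by 3.07 on 40 µM replicate 1, the 7th largest change of any gene on that array, and by 0.77 on replicate 2, the 569th. Mt2 was higher by 2.95 and 1.01 on these arrays, ranking 11th and 169th. On 2.5 µM replicate 1 the changes were 1.16 for Mt1, ranking 239th, and 1.63 for Mt2, ranking 28th. On 2.5 µM replicate 2 they were 0.002 and -0.13. At the lower dose both metallothioneins thus stood above control on the low array and close to control on the other.

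**Figure D2:**
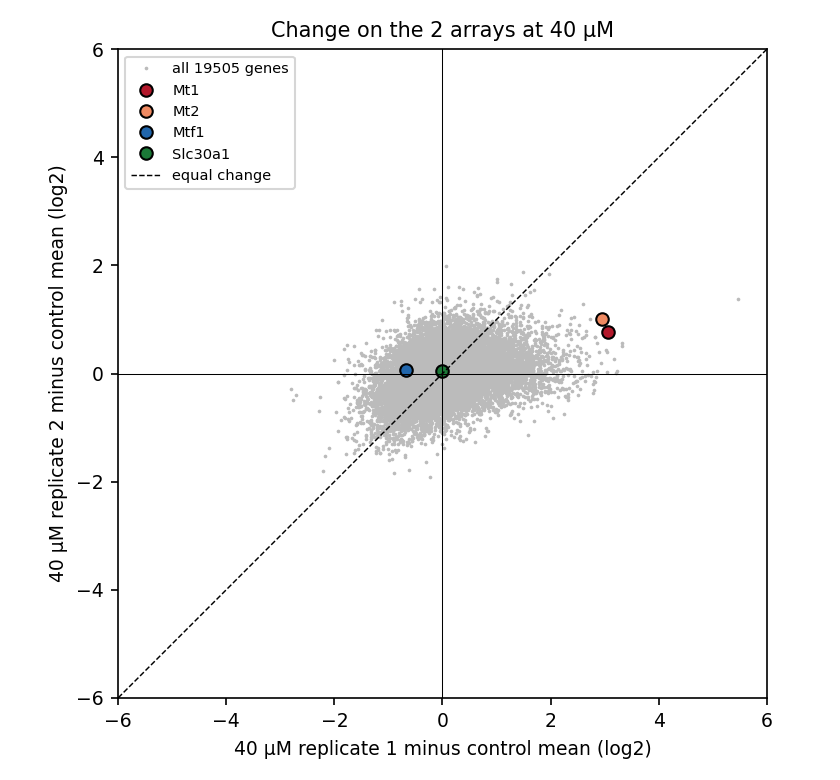
Change of every gene against the control mean on 40 µM replicate 1 (horizontal) and replicate 2 (vertical), in log2 units, with the 4 genes in colour and the dashed line marking an equal change. Mt1 (3.07 and 0.77) and Mt2 (2.95 and 1.01) lie far to the right of the line, Mtf1 (-0.68 and 0.06) to its left and Slc30a1 at the centre.

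Comparing the doses within arrays of a kind, 40 µM exceeded 2.5 µM by 1.91 for Mt1 and 1.32 for Mt2 between the low arrays, and by 0.77 and 1.14 between the replicates 2. The median of all genes was -0.001 and -0.02 in these differences. All 4 differences were positive, each between 1 array and 1 array. In the fit over all arrays, 40 µM against 2.5 µM gave a log2 change of 1.34 (SE 0.70) for Mt1 and 1.23 (SE 0.71) for Mt2 (limma, adjusted p = 0.854 and 0.858). The arrays of the 2 doses overlapped. No gene passed here (0%, limma), with 1095 at an unadjusted p under 0.05. None of the 4 members had such a p, where 2.34% of genes were higher and 3.28% lower at that level.

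With the low arrays as a block, the change at 40 µM against control was 1.05 for each metallothionein, with standard errors of 0.27 for Mt1 and 0.13 for Mt2 (limma, adjusted p = 0.208 and 0.205). Without both low arrays it was 0.77 and 1.01 (adjusted p = 6.77e-04 and 4.64e-04), with 1 array at 40 µM and the error taken from the 2 controls alone, and 3749 genes passed. Without 40 µM replicate 2 it was 3.07 and 2.95 (adjusted p = 0.0197 and 0.0377), with 2235 genes passing. The lone array left was then taken to have the spread of the other groups. Without 40 µM replicate 1 the change was 0.77 and 1.01 and did not pass. The direction was higher in all of these fits. What part the array difference has in the size of the change was not tested further. Mt1 on 40 µM replicate 1 lay below the array maxima of 19.71 to 19.88, and saturation was not tested. Whether probes of such close paralogs tell Mt1 from Mt2 is not given in the sources used here.

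**Figure D3:**
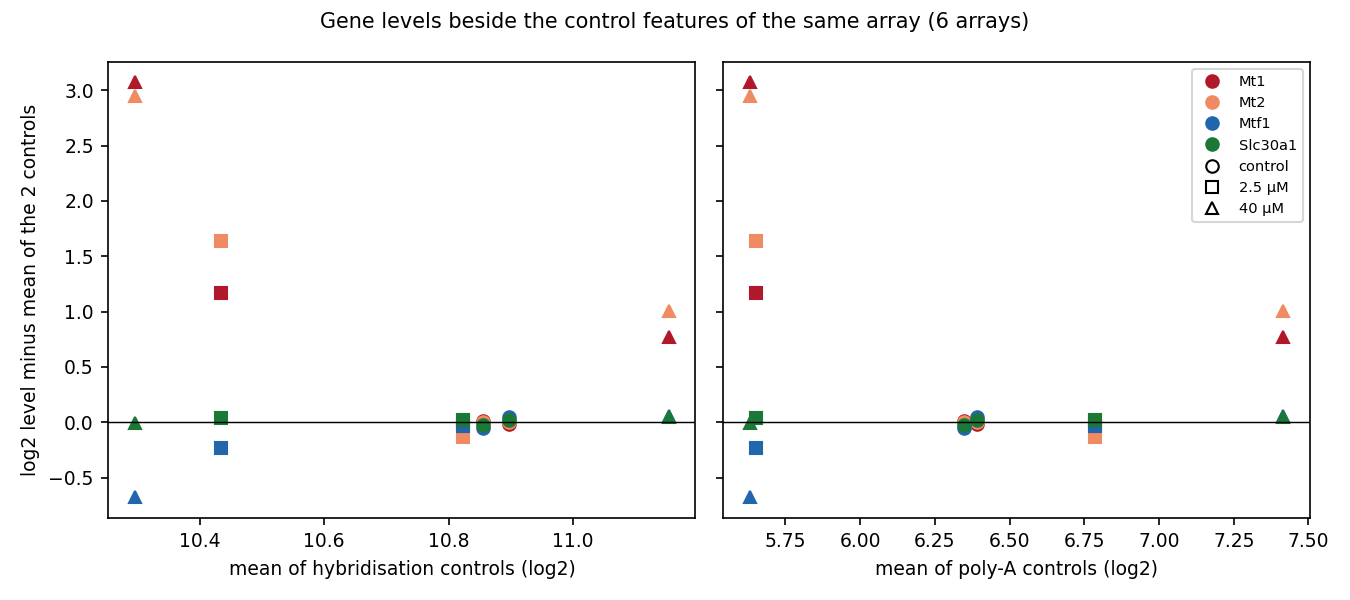
Log2 level of each gene minus its control mean on the 6 arrays, against the array's mean hybridisation controls (left) and poly-A controls (right), with circles for control, squares for 2.5 µM and triangles for 40 µM. All poly-A means lie below background. The low arrays, at 10.30 and 10.43 on the left, carry the 2 highest values of Mt1 (3.07 and 1.16) and of Mt2 (2.95 and 1.63), while Mt1 and Mt2 on 40 µM replicate 2, the array with the highest controls (11.15), still lie at 0.77 and 1.01.

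At 2.5 µM against control, the log2 change was 0.58 (SE 0.70) for Mt1 and 0.75 (SE 0.71) for Mt2 (limma, adjusted p = 0.803 and 0.750). The 95% confidence intervals ran from -1.07 to 2.23 and from -0.93 to 2.43. The groups overlapped. No gene passed (0%, limma), with 1877 at an unadjusted p under 0.05, and none of the 4 members had such a p, where 4.24% of genes were higher and 5.38% lower at that level. With the low arrays as a block both estimates turned negative, -0.28 and -0.18.

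Mtf1, the zinc-sensing activator of these genes, had a lower mean in both treated groups than in control, and neither difference passed. It lay at 10.12 and 10.21 in control, at 9.93 and 10.13 at 2.5 µM, and at 9.49 and 10.22 at 40 µM. The value on 40 µM replicate 1 stood below the others, which lay between 9.93 and 10.22, and below the background of its array, 9.80. The means were 9.86 ± 0.52 at 40 µM and 10.16 ± 0.07 for the controls (SD, n = 2). The log2 change was -0.31 (SE 0.27, limma, adjusted p = 0.643, 95% confidence interval -0.95 to 0.34). Without 40 µM replicate 1 it turned to 0.06. At 2.5 µM the change was -0.13 (SE 0.27; adjusted p = 0.894). Mtf1 thus lay near background throughout and was low on the array where Mt1 and Mt2 were highest.

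Slc30a1, the zinc exporter that MTF1 also acts on, showed no difference beyond its error between the groups. It lay at 7.21 and 7.26 in control, at 7.27 and 7.25 at 2.5 µM, and at 7.23 and 7.28 at 40 µM. The groups overlapped and the whole range over 6 arrays was 0.07, the third smallest of all 19505 genes, whose median range was 0.76. The log2 change was 0.02 (SE 0.20) at 40 µM (limma, adjusted p = 0.972, 95% confidence interval -0.45 to 0.49) and 0.03 (SE 0.20) at 2.5 µM (adjusted p = 0.975, 95% confidence interval -0.45 to 0.50). This gene lay below background on every array, above only 71.1% to 73.7% of the negative control features. Whether this feature responds to its transcript at such a level was not tested.

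**Figure D4:**
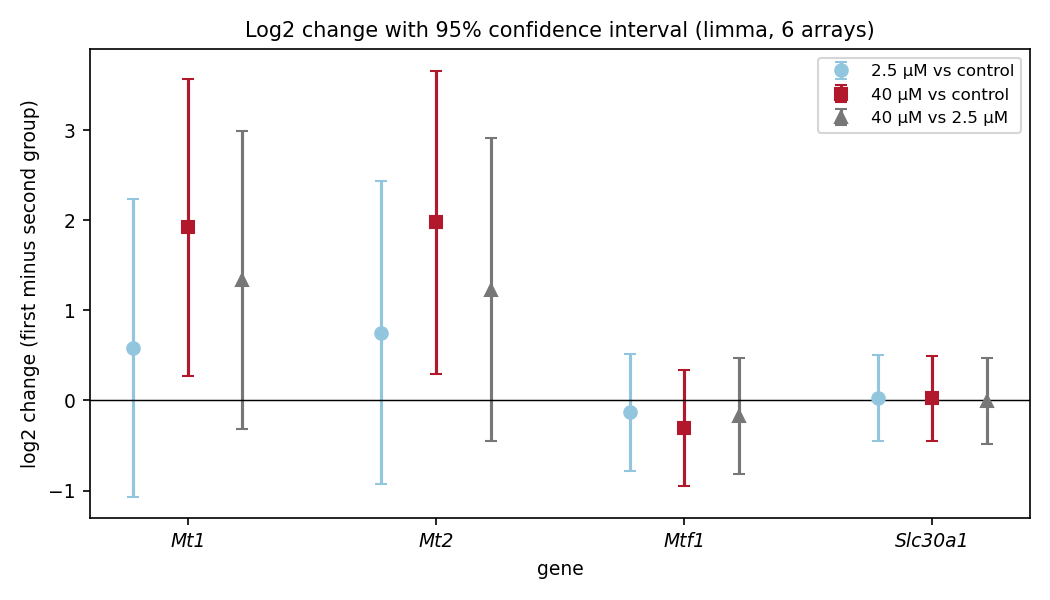
Log2 change of the 4 genes in the 3 comparisons, with 95% confidence intervals from limma on 6 arrays. The intervals of Mt1 and Mt2 for 40 µM against control lie above 0 (from 0.27 and 0.30), and the other 10 intervals include 0. Every interval takes 1 spread for all groups, although the SDs of Mt1 and Mt2 were far smaller in control than at 40 µM.

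Likeness of pattern was measured as Pearson r over the 6 arrays, among the 4147 genes whose mean lay above background. The arrays share the split into low and other arrays, so these values describe the arrays and carry no test. Mt2 correlated with Mt1 at r = 0.981 (Spearman rho = 0.829, n = 6) and ranked 44th among the genes most like Mt1, while Mt1 ranked 28th for Mt2. The genes most like Mt1 were Gtf2f1 (r = 0.999), Chordc1 (0.999), P4hb (0.997), Sypl (0.996), Uqcrh (0.996), Nsdhl, Mir692-3 and Hoxa10 (0.994 each), and Ncoa1 and Dhx40 (0.993 each). P4hb, a protein disulfide isomerase of the endoplasmic reticulum, lay at 12.50 and 12.64 in control, at 13.61 and 12.70 at 2.5 µM, and at 15.16 and 13.23 at 40 µM. Like Mt1, it was highest on 40 µM replicate 1 and second highest on the low array at 2.5 µM. Those most like Mt2 were 1810013L24Rik (r = 0.995), Uqcrh and Rpl36a (0.994 each), Lgals1 (0.993), Abracl (0.992), Rpl31-ps12 and Ptpn2 (0.990 each), Naxe and Ptgds (0.989 each) and Eif3f (0.988). Uqcrh, a subunit of respiratory complex III, was on both lists, at 10.95 and 10.98 in control, 11.46 and 10.95 at 2.5 µM, and 12.06 and 11.29 at 40 µM.

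Mtf1 had r = -0.933 to Mt1 and -0.883 to Mt2, with weaker rank correlations (Spearman rho = -0.657 and -0.486, n = 6). Its value was lowest on 40 µM replicate 1, where Mt1 and Mt2 were highest. On 40 µM replicate 2, Mtf1 had its highest value, 10.22, while Mt1 and Mt2 also lay above both controls. The genes most like Mtf1 were the histone gene H4c1 (r = 0.995), Secisbp2l (0.990), the histone gene H4c4, Arhgap6 (0.988 each) and Dcaf7 (0.985). H4c1 lay at 18.02 and 18.10 in control, 17.85 and 18.03 at 2.5 µM, and 17.28 and 18.09 at 40 µM, lowest on the same array as Mtf1. Slc30a1 had r = -0.091 to Mt1 and 0.035 to Mt2, and was most like Hectd4 (r = 0.989), Gtf3c4 (0.923), Sec61a1 (0.903), Plxnc1 (0.901) and Dusp11 (0.898), over a range of its own of 0.07.

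The other 2 metallothionein genes lay below background. Mt3, known from brain, lay between 3.95 and 4.23 on the 6 arrays, and Mt4, known from stratified epithelium, between 5.04 and 6.81. Mt4 had a log2 change of -1.22 (SE 0.36) at 40 µM and -1.47 (SE 0.36) at 2.5 µM, between values not above background. Its unadjusted p-values were 0.0111 and 0.00434 and its adjusted ones 0.349 and 0.479 (limma), with both arrays of each dose below both controls. Of the partners through which MTF1 or the Mt1 promoter is known to act (the coactivator Ep300, Sp1, and the E-box factors Usf1 and Usf2), together with Mtf1 itself, 0 of 5 had a higher mean at 40 µM, where 48.7% of all genes did. On 40 µM replicate 2 alone, Mtf1 lay just above both controls, and so did Usf1, at 8.76 against 8.33 and 8.36 and with a mean below background. The median change was -0.30, where that of all genes was -0.01. Usf2 had a log2 change of -0.52 (SE 0.20, unadjusted p = 0.0353, adjusted p = 0.394) and lay at 11.32 and 11.41 in control, with both arrays at 40 µM below these and the low array lowest, at 10.69. Sp1 had the next smallest p, with -0.30 (SE 0.19).

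As a rule, ZnT proteins move zinc out of the cytosol and ZIP proteins move it in, which need not hold for every member. The families are called exporters and importers here, and their medians at 40 µM lay close to that of all genes, -0.01. Of the 10 exporters 7 were higher and 3 lower at 40 µM, with a median log2 change of 0.02, where 48.7% of all genes were higher. None had an unadjusted p under 0.05, where 5.18% of genes were higher and 6.86% lower at that level. Those with the smallest p were Slc30a5 and Slc30a6, which form a zinc transporter pair of the early secretory pathway. Slc30a6 lay at 9.69 and 9.59 in control, 10.44 and 10.01 at 2.5 µM and 11.22 and 9.68 at 40 µM, and Slc30a5 had a log2 change of 0.83 (SE 0.50). Both were highest on the low arrays, but Slc30a5 (mean 9.09) exceeded background on 1 array and Slc30a6 on 2. Slc30a4, Slc30a7 and Slc30a9, the exporters above background on every array, had log2 changes of 0.02, 0.02 and 0.09.

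**Figure D5:**
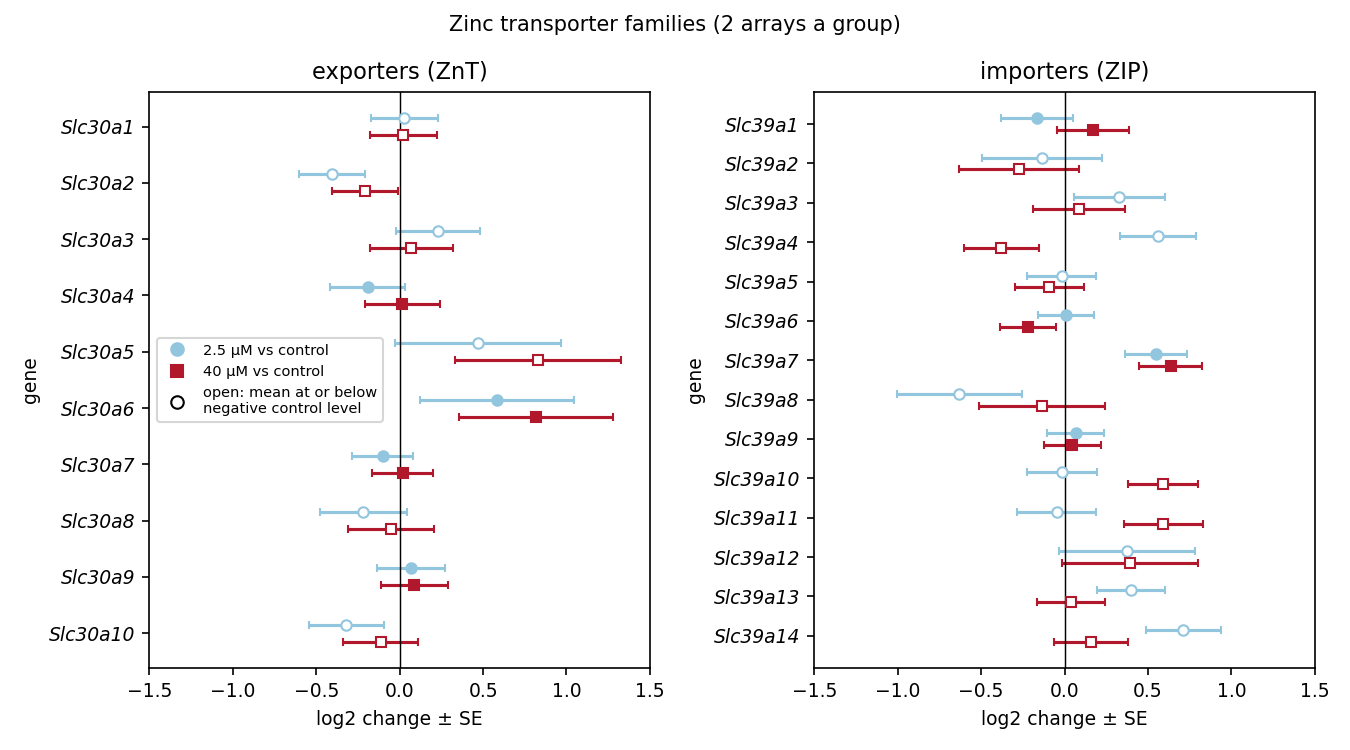
Log2 change ± SE of the 10 ZnT and 14 ZIP genes at 2.5 µM (circles) and 40 µM (squares) against control, open where the mean over 6 arrays was at or below the background of 9.94. Slc39a7 is higher at both doses (0.55 and 0.64), Slc39a10 and Slc39a11 at 40 µM (0.59 each), and Slc30a1 lies at 0.03 and 0.02.

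Of the 14 importers 9 were higher and 5 lower at 40 µM, with a median of 0.07, where 48.7% of all genes were higher, and 3 were higher at an unadjusted p under 0.05, where 5.18% of all genes were. Of the 14, 10 had a mean below background. Slc39a7, which releases zinc from the endoplasmic reticulum, lay at 9.75 and 9.84 in control, 10.43 and 10.26 at 2.5 µM and 10.43 on both arrays at 40 µM. Its arrays at both doses were above both controls, with log2 changes of 0.55 and 0.64 and a standard error of 0.19 (limma, adjusted p = 0.483 and 0.349), and it did not follow the low arrays at 40 µM. Slc39a10, a plasma membrane importer that MTF1 is known to repress, lay at 9.50 and 9.65 in control, 9.51 and 9.60 at 2.5 µM and 10.003 and 10.32 at 40 µM, a log2 change of 0.59 (SE 0.21; adjusted p = 0.371). Its mean over 6 arrays (9.76) was below background, which it exceeded on 2 arrays, and both values at 40 µM lay above both controls. Slc39a11 had 0.59 (SE 0.24; adjusted p = 0.402), also with a mean below background. At 2.5 µM, Slc39a14, an importer of zinc and iron, had 0.71 (SE 0.22) and Slc39a4, the intestinal importer, 0.56 (SE 0.23), both below background and neither passing (adjusted p = 0.479 and 0.513).

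Reported targets of MTF1 outside the metallothioneins had values on both sides of control. They include Slc39a10, which MTF1 is known to repress, so pooled counts and medians do not give a direction of MTF1 activity. Of 10 such genes, Slc30a1 and Slc39a10 among them, 6 were higher and 4 lower at 40 µM with a median of 0.01, where 48.7% of all genes were higher. At an unadjusted p under 0.05, 2 were higher, where 5.18% of all genes were, and 7 of the 10 had a mean below background. These were Slc39a10 and Slc40a1, the iron exporter ferroportin, whose mean over 6 arrays (9.27) was below background and which lay at 8.84 and 8.74 in control, 8.71 and 9.25 at 2.5 µM and 10.23 and 9.85 at 40 µM. At 2.5 µM, Ndrg1 had a log2 change of 0.48 and Gclc, the catalytic subunit of glutamate-cysteine ligase, -0.61 (unadjusted p = 0.0308 and 0.0172, adjusted p = 0.502 and 0.479). Pgf and Hamp, both below background, had -0.53 and 0.89 at that dose.

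The lists that follow, NRF2 targets included, hold reported targets of other signals that metallothionein genes answer to. The signals themselves were not measured, and whether any of them acted on Mt1 or Mt2 here was not tested. Of 14 copper handling genes measured, 9 were higher and 5 lower at 40 µM, with a median of 0.08, where 48.7% of all genes were higher. At an unadjusted p under 0.05, 1 was higher, where 5.18% of all genes were. This was Slc31a2, a copper transporter with levels below background, with 0.71 at 40 µM and 1.05 at 2.5 µM (SE 0.21, adjusted p = 0.349 and 0.479). Ceruloplasmin, the copper-carrying ferroxidase encoded by Cp, had -0.38 at 40 µM (SE 0.18). Of 8 glucocorticoid targets 5 were higher, with a median of 0.27, where 48.7% of all genes were higher. None had an unadjusted p under 0.05, and 7 of the 8, among them Dusp1, Errfi1 and Tsc22d3, had a mean below background. Fkbp5, an HSP90 cochaperone and the one above it, lay at 13.16 and 13.14 in control and at 12.48 and 13.32 at 40 µM (log2 change -0.25, SE 0.28). Dusp1, a MAP kinase phosphatase, and Errfi1, an inhibitor of EGF receptor signalling, had 0.62 and 0.47 (SE 0.30 and 0.23), and Tsc22d3 (GILZ) lay at 7.14 and 7.24 in control and 7.87 and 7.39 at 40 µM. Of 9 metal-inducible stress genes 5 were higher, with a median of 0.24, where 48.7% of all genes were higher. Hsph1, a heat shock cochaperone, had 0.86 (SE 0.26, limma, unadjusted p = 0.0122, adjusted p = 0.349), while Dnajb1, an HSP40 cochaperone with a mean below background, had 0.58 (SE 0.25). Hmox1, a gene that cadmium and heme induce strongly, lay at 17.33 and 17.28 in control and 17.02 and 18.07 at 40 µM, lower than control on the array where Mt1 was highest.

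Targets of NRF2, the oxidant-responsive factor, had a list median of 0.94 at 40 µM, with 8 of 8 higher, where 48.7% of all genes were, and 6 higher at an unadjusted p under 0.05, where 5.18% of all genes were. At 2.5 µM the median was -0.28, with 3 of 8 higher, where 51.2% of all genes were. The 6 were Srxn1 (1.49), Osgin1 (1.74), Nqo1 (1.33), Gsr (1.01), Gclm (0.86) and Txnrd1 (0.80), with adjusted p-values from 0.334 to 0.368 (limma), and Osgin1 and Nqo1 lay below background by their means. Earlier results of these data already showed this list. Gclc, counted among the 8, lay at 12.18 and 12.21 in control and at 12.27 and 12.15 at 40 µM, with 1 array below both controls. Srxn1 lay at 10.21 and 10.43 in control, 9.63 and 9.57 at 2.5 µM and 11.85 and 11.78 at 40 µM. Its 2 arrays at 40 µM lay close together, as did those of Txnrd1 at 17.35 and 17.26. Others of the 6 were higher on replicate 1 than on replicate 2, as Mt1 and Mt2 were, with Osgin1 at 10.70 and 9.30, Nqo1 at 8.27 and 6.94, Gclm at 14.43 and 13.79 and Gsr at 13.58 and 13.15. The list thus held genes with and without a gap between these arrays.

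At 2.5 µM against control, the same lists had medians of -0.04 for exporters (5 of 10 higher), 0.04 for importers (8 of 14), 0.01 for reported MTF1 targets (5 of 10) and -0.04 for MTF1 and its partners (1 of 5), where that of all genes was 0.01. Copper handling had 0.03 (9 of 14), glucocorticoid targets -0.01 (4 of 8) and metal-inducible stress genes 0.28 (5 of 9). Of all genes, 51.2% were higher at this dose. At an unadjusted p under 0.05, 4.24% of all genes were higher and 5.38% lower. Importers held 3 genes higher at that level, reported MTF1 targets 2 higher and 2 lower, copper and stress genes 1 higher each, and NRF2 targets 2 lower. Of the 4 metallothionein genes 1 was lower at that level, Mt4. Atf3, a stress-induced transcription factor, was the stress gene, at 11.10 and 11.22 in control, 11.81 and 11.86 at 2.5 µM and 11.37 and 11.69 at 40 µM (log2 change 0.68, SE 0.20, adjusted p = 0.479). It stood above control on all 4 treated arrays and did not follow the low arrays. Srxn1 had -0.72 (SE 0.19) and Gclc -0.61 (SE 0.20). Those with the smallest p in the other lists were Slc30a2 (-0.41) and Slc30a10 (-0.32), Ep300 (-0.15), Cox19 (-0.54), Tsc22d3 and Klf9 (0.52 each) and Hspb1 (-0.64), none of them at an unadjusted p under 0.05.

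For 40 µM against 2.5 µM, exporters had a median of 0.18 (8 of 10 higher), importers -0.05 (6 of 14), reported MTF1 targets 0.10 (5 of 10) and MTF1 with its partners -0.26 (0 of 5), where that of all genes was -0.003 and 49.6% of all genes were higher. Copper handling had 0.08 (8 of 14), glucocorticoid targets -0.04 (3 of 8), stress genes 0.03 (7 of 9) and NRF2 targets 1.15 (8 of 8, all at an unadjusted p under 0.05, where 2.34% of all genes were higher and 3.28% lower). Among importers, Slc39a10 (0.61) and Slc39a11 (0.64) were higher and Slc39a4 (-0.94) and Slc39a14 (-0.55) lower at that level. Among reported MTF1 targets these were Slc40a1 (1.06), Gclc (0.63), Slc39a10 and Pgf (0.54) as higher, and Hamp (-0.91) and Csrp1 (-0.40) as lower. Hmox1 had 0.81 (SE 0.32), Usf2 -0.48 (SE 0.20) and Cox19 0.65 (SE 0.23). The NRF2 targets ran from 0.50 for Slc7a11, the cystine importer, to 2.21 for Srxn1, whose adjusted p of 0.132 was the smallest of the comparison (limma). Those with the smallest p elsewhere were Slc30a2 (0.20) and Slc30a4 (0.21), Sp1 (-0.29), Cp (-0.41), Per1 (0.36), Errfi1 (0.41) and Atf3 (-0.31).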

How the data were processed

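Biotinylated cRNA from total RNA was read on single-colour Affymetrix arrays, per the labels' protocols. The deposited values are log2 expression, made by the authors with RMA in Affymetrix software (the notes name Expression Console and Transcriptome Analysis Console), per the submitters' processing notes. RMA includes quantile normalization of the arrays, which is meant to remove differences in total signal. The deposited values of the low arrays still had a wider spread over genes than those of the others. Values reached 19.88, beyond a 16-bit image, by a step that is not stated, so folds are on the deposited scale. The genome build is not given in the sources used here.

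Samples were grouped by title and treatment label, although the description fields of the 4 treated samples name another treatment or medium. Of 22142 transcript clusters, 19572 had 1 gene symbol. Where a gene had several, its brightest cluster by mean was taken, giving 19505 genes, dim ones included. The test was that of limma 3.58.1 (R 4.3.3) with all 6 arrays (group means, no covariate, variance trend, two-sided, Benjamini-Hochberg over all genes, threshold 0.05). It was run on simulated data with independent noise and 1 spread per gene for all groups. That simulation held neither the low arrays nor unequal spreads between groups, so it does not show how the test behaves under them. The number of arrays limits the precision. Promoters came from RefSeq (GRCm38.p6), where all 4 genes matched by symbol. List genes named had an unadjusted p under 0.05 or were the 2 with the smallest p. Mt3, Slc30a4, Slc30a7, Slc30a9, Tsc22d3, Fkbp5, Usf1, Gclc and Hmox1 at 40 µM, and the levels of P4hb, Uqcrh and H4c1, were singled out after their values were seen. Members, lists and alternatives were chosen with earlier results of these data known.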

Additional observations from a re-analysis of the deposited data

How the results depend on the processing

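Each value was recomputed with 17 other settings (16 for Slc30a1, which a filter on background removes). At 40 µM against control, Mt1 and Mt2 kept their direction in all 17 and passed in 2, without both low arrays (0.77 and 1.01) and without 40 µM replicate 2, and over single arrays left out they ranged from 0.77 to 3.07 and from 1.01 to 2.95. Mtf1 turned to 0.0608 without both low arrays and without 40 µM replicate 1 (range over single arrays left out -0.676 to 0.0608). Slc30a1 turned to -0.117 after quantile normalization, to -0.0945 with arrays centred on genes above background, to -8.85e-04 without control replicate 1 and to -0.00288 without 40 µM replicate 2 (range over single arrays left out -0.00288 to 0.0463). The centring moved the median of all genes to -0.13, and relative to it Slc30a1 was not lower.

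At 2.5 µM against control, the low arrays as a block gave -0.28 for Mt1, -0.18 for Mt2 and 0.10 for Mtf1. Mt2 was -0.13 without both low arrays and without 2.5 µM replicate 1. Slc30a1 was -0.0600 after quantile normalization and -0.0486 after centring. Leaving out single arrays, Mt1 ranged from 0.002 to 1.16 and Mt2 from -0.13 to 1.63.

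For 40 µM against 2.5 µM without both low arrays, each dose had 1 array and the spread came from the 2 controls, which are not in the comparison, so that the values of Mt1 (0.77, adjusted p = 0.00113) and Mt2 (1.14, adjusted p = 6.64e-04, limma) have no replicate check. There Mtf1 turned to 0.0949 and Slc30a1 to 0.0275. Mtf1 was 0.19 without 40 µM replicate 1 (range over single arrays left out -0.54 to 0.19). Slc30a1 was 0.003 without 2.5 µM replicate 1 and 0.0187 without 40 µM replicate 1 (range over single arrays left out -0.0305 to 0.0187). The ranges with single arrays left out were 0.19 to 2.49 for Mt1 and 0.26 to 2.20 for Mt2. The causes of these turns were not tested.

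The number of genes passing was 0 in each comparison (limma, 2349, 1877 and 1095 at an unadjusted p under 0.05). Without both low arrays it was 3749, 3991 and 2965, on 1 degree of freedom. Over single arrays left out it ran from 0 to 2235 for 40 µM against control and was 0 throughout in the others, and 1 gene passed for 40 µM against 2.5 µM with the low arrays as a block. Same-numbered arrays share only a number: their deviations correlated at -0.005 and -0.012 between control and the doses and at 0.386 between the doses. With the replicate number as a block, 0 genes passed in each comparison, Mt1 kept its change of 1.92 (adjusted p = 0.216), and no call changed.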
